A study of Mus musculus with 2040 samples.

Results

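Immediate-early genes are the genes whose transcription is switched on within minutes of a stimulus without the need for new protein. The set described here holds 37 of them, all 37 found among the 32245 gene columns of a table of read counts scaled to one depth (CPM, reads of a gene per 1000000 reads of the cell) in single mouse brain cells. They were listed by name, with earlier results of these data known, and are read by cell class, tissue, mouse and sort plate. The cells came from 47 C57Bl/6J mice. Each mouse was given 1 of 30 adeno-associated virus vectors in which the named enhancer or promoter drives the fluorescent protein SYFP2, and SYFP2-positive cells were flow sorted one by one and amplified with SMARTer chemistry. Cortical cells, from the primary visual area (VISp), came from 41 mice and 27 vectors. Cells from the midbrain and hindbrain (MB/HB) came from 4 mice, 2 each with eHGT_381h and MGT_E160m, and cells from the cerebellar cortex (CBX) from 2 mice with eHGT_375m. Every mouse carried a vector, and no stimulus, behaviour, age or sex is given in the labels, so no mouse here is a labelled stimulated or resting control. The mouse is the replicate throughout, and cells of 1 mouse are never counted as separate samples.

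The proteins these genes encode fall into a few roles. AP-1 subunits (Fos, Fosb, Fosl2, Jun, Junb, Jund, and the relatives Atf3 and Maff) pair with each other to bind DNA, EGR factors (Egr1, Egr2, Egr3) are zinc-finger activators, and the orphan nuclear receptors Nr4a1, Nr4a2 and Nr4a3 act without a known ligand. Others close the response again: Dusp1 and Dusp6 are phosphatases of MAP kinases, Zfp36 and Btg2 speed mRNA decay, and Socs3 and Rgs2 dampen cytokine and G-protein signals. In neurons these genes are widely used as a record of recent firing, with Arc and Npas4 as the members most tied to synaptic activity, and in glia they follow growth factors, neurotransmitters and tissue handling.

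Cells were assigned to 3 classes from clusters and markers. Astrocyte-like cells numbered 963 (47.2%), with 738 in VISp, oligodendrocyte-like cells 946 (46.4%), and neuron-like cells 90 (4.41%). Why neurons were among the sorted cells was not tested. Another 41 cells stayed without a class. The astrocyte-like VISp mice with at least 10 cells (19 mice) carried eHGT_373m, eHGT_374m, eHGT_376h, eHGT_380h, eHGT_385m, eHGT_386m, eHGT_387m, eHGT_390h, eHGT_390m, 3xCore2(390m), ProB12 or GFAP_promoter. The oligodendrocyte-like VISp mice (22 mice) carried eHGT_361h, eHGT_391h, eHGT_395h, eHGT_396h, eHGT_396m, eHGT_397m, eHGT_400h, eHGT_400m, eHGT_401h, eHGT_403h, eHGT_405m, eHGT_409h, eHGT_410m, eHGT_641m or MBP_promoter. Summed marker CPM fitted these names: astrocyte markers totalled 27764 to 37005 CPM in the VISp astrocyte mice and 356.4 to 1274 CPM in the oligodendrocyte mice, and oligodendrocyte markers totalled 171.1 to 1311 and 68394 to 92493 CPM. No mouse gave at least 10 cells of both glial classes, so class and vector cannot be told apart in the comparison of glia. The median depth was 434102 reads per cell (57873 to 1455022), read back from the whole-read steps of the CPM values.

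In visual cortex the members detected in the 2 glial classes overlapped but differed in number. A member was called detected in a class when at least 10% of its cells, averaged over mice, held a read. By that rule 21 of 37 members were detected in VISp astrocytes, 9 in oligodendrocytes and 26 in VISp neurons. With cells pooled, 2282 of the 4923 gene columns used had a read in at least 10% of VISp astrocytes and 2069 in oligodendrocytes. No such share is given for neurons or for astrocytes of other regions, so their counts cannot be set against all genes. The 9 of the oligodendrocytes were Jund, Jun, Arc, Nr4a1, Dusp1, Klf6, Zfp36, Ppp1r15a and Gadd45b. In the pooled VISp astrocytes Arc, Zfp36 and Gadd45b had a read in 5.69%, 8.67% and 6.37% of cells. The others of the 9 had one in 19.8% to 71.5%. Averaged over mice, Klf2, Socs3, Ccn2 and Npas4 had a read in at most 0.389% of the cells of either glial class of VISp. Npas4 and Socs3 had none in any of the 22 oligodendrocyte mice. The heat map of mouse means shows the astrocyte columns as uneven and the oligodendrocyte columns as nearly alike.

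**Figure D1:**
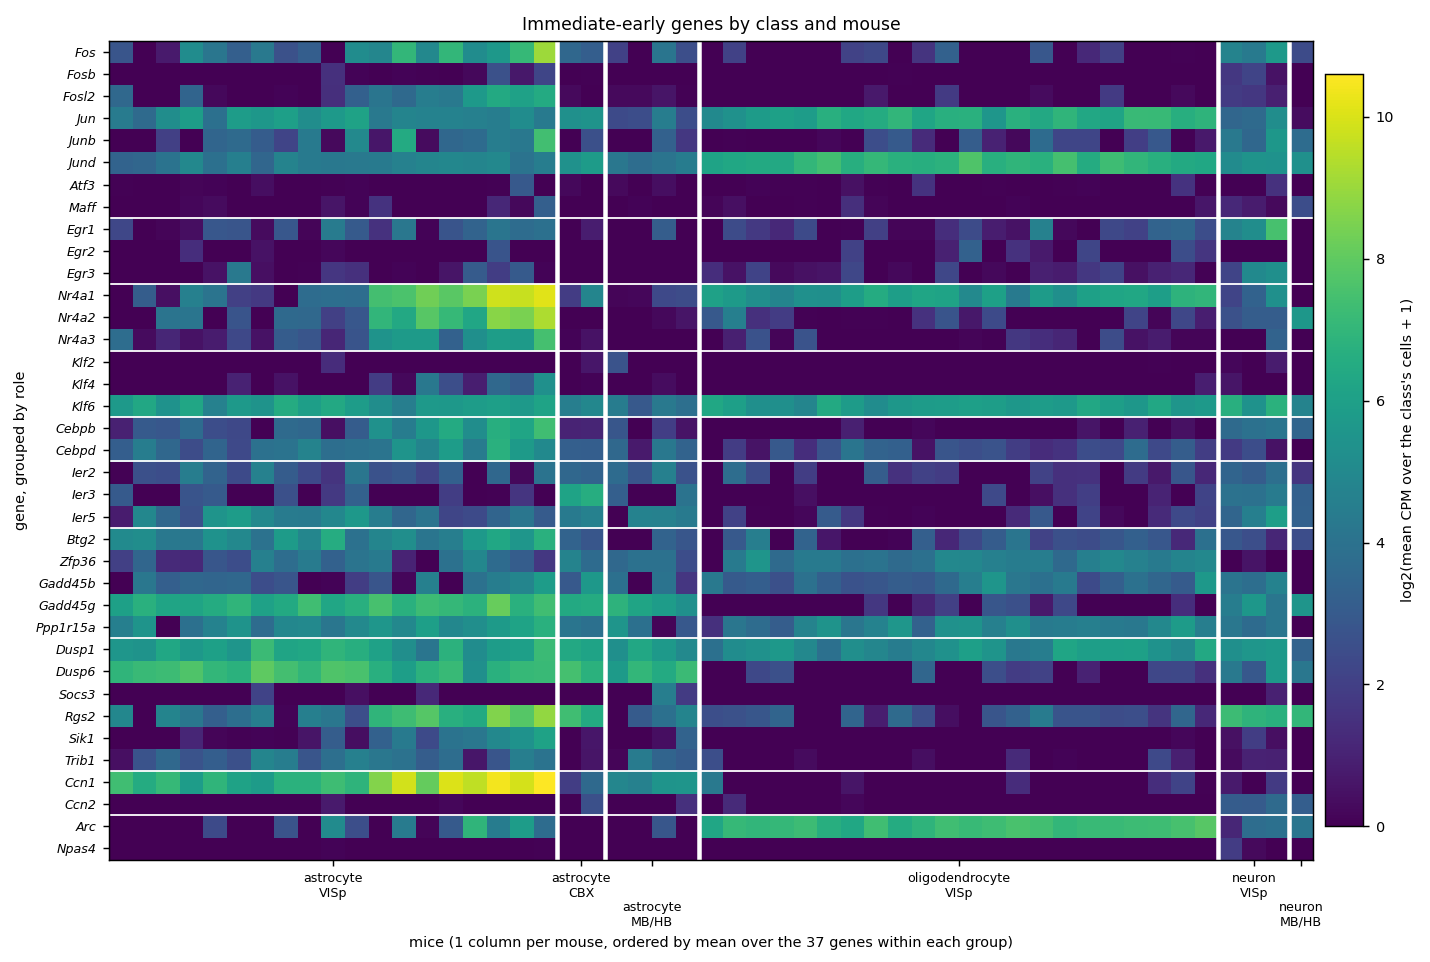
Heat map of the 37 members (lines, ordered by role) in each mouse (columns, grouped by class and tissue), coloured by log2(mean CPM + 1) over the cells of that class in that mouse. Ccn1, Dusp6 and Gadd45g are bright in the VISp astrocyte columns and near 0 in the oligodendrocyte columns, where Arc, Jund and Jun are bright, and Nr4a1 runs from 0 to 1105 CPM among the astrocyte mice.

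The class difference was tested with limma, a linear model fitted to all genes at once, on log2(mean CPM + 1) per mouse, in 22 oligodendrocyte against 19 astrocyte mice. Of 34 members tested, 4 were higher in oligodendrocytes and 19 lower at an adjusted p under 0.05. Of all 3371 genes tested, 22.8% were higher and 38.3% lower, so most genes differ between these classes, and the members' median difference was -0.99 log2 units against -0.24 over all genes. Klf2, Ccn2 and Npas4 were too low to test.

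The members that were higher in oligodendrocytes included Arc, whose protein trims synaptic glutamate receptors in neurons. Arc had 142.1 ± 35.9 CPM (SD, n = 22 mice, 77.2 to 228.6) in oligodendrocytes, with a read in 59.3% of cells, and 15.1 ± 29.6 CPM (n = 19, 0 to 120.6) in astrocytes, where 8 mice had none. The difference was 4.94 ± 0.48 log2 units (SE, limma adjusted p = 1.02e-12), and 1 astrocyte mouse, an eHGT_373m mouse with 12 astrocytes, reached into the oligodendrocyte range. Jund, the AP-1 subunit least dependent on stimulation, had 69.2 to 205.1 CPM in oligodendrocytes and 9.502 to 29.99 in astrocytes, with no overlap (2.44 ± 0.15 log2 units, limma adjusted p = 5.87e-20). Its partner Jun rose less, with 31.7 to 146.2 CPM in oligodendrocytes and 11.6 to 67.1 in astrocytes (1.40 ± 0.20, limma adjusted p = 3.36e-08). Zfp36, which destabilises AU-rich mRNAs, was the other member called higher (1.27 ± 0.37, limma adjusted p = 0.00281), at 20.997 ± 9.29 against 10.21 ± 8.42 CPM.

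The largest falls were in a secreted matrix protein and 2 signalling brakes. Ccn1, a matrix-associated target of growth factors and stretch, had 55.6 to 1555 CPM over the astrocyte mice (median 155.5) and 0 to 18.8 CPM (median 0) over the oligodendrocyte mice, a difference of -7.48 ± 0.41 log2 units (limma adjusted p = 1.44e-21). Gadd45g, a stress-induced growth-arrest gene, and Dusp6, the ERK phosphatase, were lower by similar amounts (-6.13 ± 0.26 and -6.02 ± 0.30 log2 units). For these 3 genes no oligodendrocyte mouse reached the lowest astrocyte mouse. Such separation in either direction was found in 12.8% of all genes and in 4 of 34 members, Jund being the fourth.

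Fos itself was lower in oligodendrocytes. It ran from 0 to 530.9 CPM (median 28.3) in astrocyte mice and from 0 to 8.87 CPM (median 0, 13 of 22 mice without a read) in oligodendrocyte mice, and the groups overlapped at the low end (-3.53 ± 0.55 log2 units, limma adjusted p = 2.82e-07). Cebpb, a bZIP factor of inflammatory responses, fell by 3.72 ± 0.44, Nr4a2 by 3.34 ± 0.70, Btg2 by 2.996 ± 0.37 and Junb by 1.73 ± 0.54 log2 units. The other members called lower were Ier5, Trib1, Rgs2, Nr4a3, Fosl2, Sik1, Cebpd, Ier2, Klf4, Dusp1 and Fosb. The Fosb call, at -0.39 log2 units, was lost without any 1 of 4 astrocyte mice. Mice of both classes shared 5 sort plates, and with values per mouse and plate and the plate as a block 20 members were called. That fit called 42.3% of all genes, against 61.2% without the block. Fosb, Ier2, Klf4 and Cebpd were then lost (limma adjusted p = 0.215, 0.487, 0.0710 and 0.0671), and Junb was at -3.82 ± 0.70 log2 units.

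Nr4a1 and Egr1 did not pass. Egr1, a widely used activity marker in neurons, had 6.70 ± 6.55 CPM in astrocytes and 3.59 ± 5.48 CPM in oligodendrocytes (-0.71 ± 0.44 log2 units, limma adjusted p = 0.165). With the plate as a block it was called, at -1.68 ± 0.69 (limma adjusted p = 0.0440). For Nr4a1 the mean CPM was higher in astrocytes (223.7 against 60.8) while the mean of the logs was lower, giving +0.72 ± 0.70 log2 units for oligodendrocytes (limma adjusted p = 0.380). The 2 distributions differ in shape: all 22 oligodendrocyte mice lay between 18.95 and 123.5 CPM, and no astrocyte mouse but 1 lay in that range, at 23.2 CPM.

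Genes that act beside the members were read from lists fixed for this purpose. Of all 3371 genes tested, 22.8% were higher and 38.3% lower in oligodendrocytes. A control list of 10 housekeeping genes gave 5 higher and 3 lower, so these counts alone do not set a list apart. Among 10 feedback genes of the MAP kinase pathway 2 were higher and 6 lower in oligodendrocytes, led by Spry4 (-4.09 ± 0.23) and Spry2 (-2.96 ± 0.26), inhibitors of receptor tyrosine kinase signalling, and by Errfi1 (+3.56 ± 0.27), an inhibitor of the EGF receptor. Among 13 activity-regulated late genes none was higher and 6 were lower, with Scg2, a secretory granule protein, at -3.32 ± 0.45. Heat-shock genes, which respond to tissue handling as well as to stress, went the other way in 7 of 10, with 2 lower, and Hspa1b was at +3.76 ± 0.33. Regulators of AP-1, SRF and CREB targets were 3 higher and 5 lower of 13, with Mef2c, a myocyte enhancer factor, at -2.76 ± 0.27. The NF-kB feedback list gave 2 higher and 4 lower of 11, with Zfp36l1, a relative of Zfp36, at -5.21 ± 0.23 log2 units.

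Among mice of the same class and region the members spread over a wide range in astrocytes and a narrow one in oligodendrocytes. For each cell the log2(CPM + 1) values of the 37 members were averaged into a score. Over 19 VISp astrocyte mice the mouse mean of that score was 1.22 ± 0.62 (SD, 0.498 to 2.83, median 1.06), and over 22 oligodendrocyte mice it was 0.760 ± 0.143 (0.462 to 1.09). The high astrocyte mice were 1 each with 3xCore2(390m) at 2.83, eHGT_386m at 2.17, eHGT_390h at 2.10, eHGT_373m at 1.67 and GFAP_promoter at 1.66. The remaining 14 mice lay from 0.498 to 1.40. The difference in spread between the classes was not tested.

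Plate and vector can be held fixed to see which level the spread follows. Where astrocytes of 1 mouse had been sorted onto 2 plates (8 pairs) their scores differed by a median of 0.0659 and at most by 0.270. Astrocytes of 2 mice on 1 shared plate (26 pairs) differed by a median of 0.416 and up to 1.93, and those of 2 mice with 1 shared vector (7 pairs) by 0.465 and up to 2.21. The widest pair with 1 vector was 3xCore2(390m), at 2.83 in 1 mouse and 0.629 in the other. Scores thus differed less between plates of a mouse than between mice of a plate or vector, although pairs share mice and are not independent. Animal, injection and dissociation cannot be told apart. In oligodendrocytes the same 3 medians were 0.0483, 0.169 and 0.240.

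**Figure D2:**
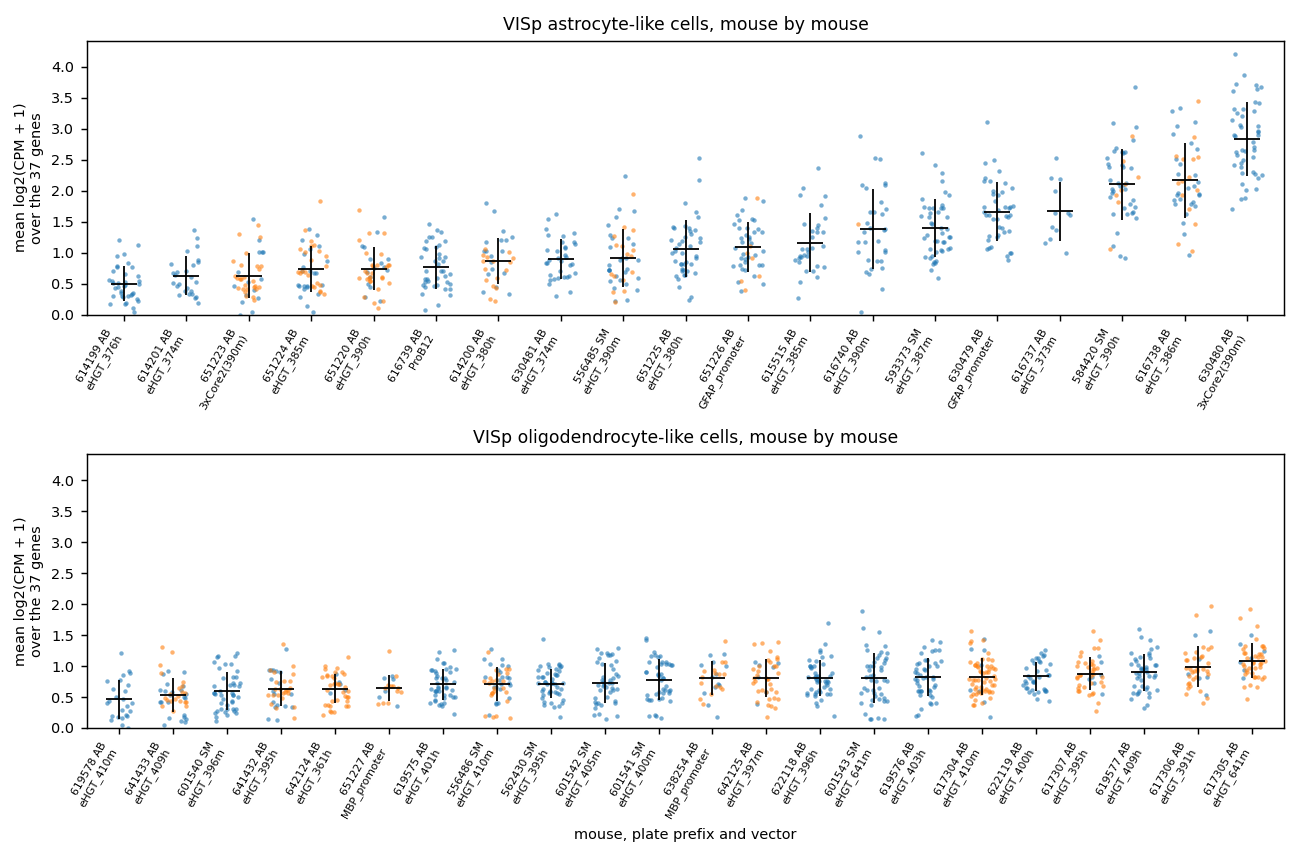
Score of the 37 members (mean log2(CPM + 1) over the genes, y axis) in single VISp cells, by mouse (x axis, with plate prefix and vector), with 1 point per cell coloured by the plates of its mouse and bars for the mean and SD over cells. Mean scores of the astrocyte mice run from 0.498 to 2.83 and those of the oligodendrocyte mice from 0.462 to 1.09, and points of both colours mix within a mouse.

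Which members carry this spread was read from the share of each gene's cell-to-cell variance that lies between mice, a variance component of log2(CPM + 1) in the 738 VISp astrocytes. Over 2282 genes detected in these cells the median share was 1.09% and the 95th percentile 6.70%. Nr4a1 had 71.6%, the highest of all 2282 genes. Nr4a2 had 54.7%, Fos 39.2%, Fosl2 37.5%, Rgs2 37.4%, Ccn1 37.1%, Nr4a3 33.3%, Cebpb 29.3%, Sik1 24.1%, Junb 17.1% and Cebpd 9.63%, so 11 of the 21 detected members stood above that percentile. The other 10 did not: Klf6 (1.32%), Dusp6 (1.78%) and Jun (3.13%) were among them. Without the highest 3xCore2(390m) mouse the share of Fos fell to 20.3% and that of Junb to 6.19%, under the percentile, while Nr4a1 kept 66.3% and 11 members were above.

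The same calculation in 927 oligodendrocytes gave a different set. There 3 of 9 detected members passed the 95th percentile of 7.05%: Jund (15.03%), Jun (9.35%) and Nr4a1 (7.84%). Arc, expressed in all 22 oligodendrocyte mice, had 3.66%. The score as a whole lay between mice to 66.8% in astrocytes and to 16.6% in oligodendrocytes. The mean score of the oligodendrocyte mice did not move with their depth (r = -0.05 over 22 mice). It did move with their summed oligodendrocyte markers (r = 0.62), and the part of those markers in the score was not tested.

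**Figure D3:**
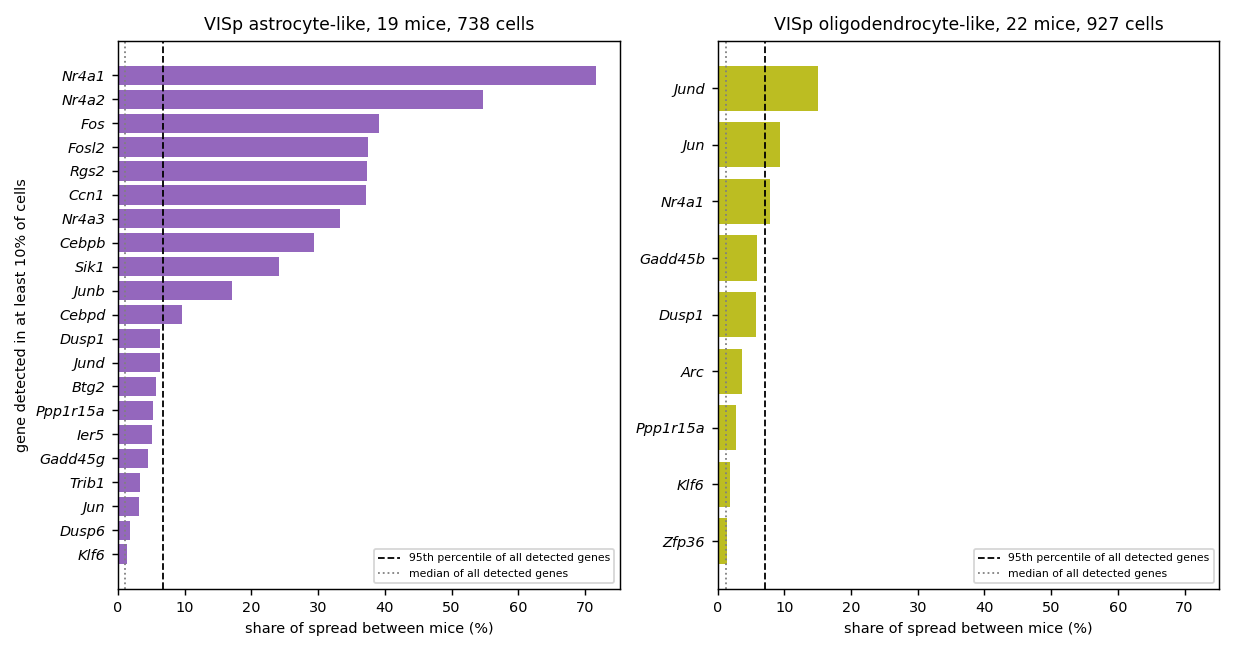
Share of cell-to-cell variance that lies between mice, in percent, for each detected member in VISp astrocytes and oligodendrocytes, with lines at the median and the 95th percentile of all detected genes. Nr4a1 reaches 71.6% in astrocytes and 7.84% in oligodendrocytes.

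The astrocyte values of Nr4a1 did not form a continuum. In order, 11 mice had 0, 0, 0.365, 2.36, 3.07, 7.65, 12.4, 12.8, 13.3, 16.1 and 23.2 CPM, and 8 mice had 172.2, 195.1, 238.1, 318.4, 355.3, 850.2, 924.3 and 1105 CPM. In the high 3xCore2(390m) mouse all 46 of 46 astrocytes held a Nr4a1 read, and in the eHGT_376h mouse and 1 eHGT_374m mouse none of 38 and 34 did. Between the 2 sets lies an empty range from 23.2 to 172.2 CPM.

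Other members set apart the same 8 mice. For Nr4a2, the closest relative of Nr4a1, those 8 had 76.6 to 623.2 CPM and the other 11 had 0 to 16.3. For Rgs2 the values were 84.996 to 474.4 against 0 to 28.99 CPM, and for Ccn1 274.3 to 1555 against 55.6 to 162.4. Cebpb (20.7 to 163.8 against 0 to 12.2) and Fosl2 (11.4 to 88.2 against 0 to 10.9) also held the 8 apart, the latter narrowly. With Nr4a1 these are 6 of the 33 members that reached 1 CPM in at least 2 of the mice, and 10 of all 3183 such genes (0.314%). Both counts include Nr4a1, which separates the sets by construction because its own gap defined them. The 4 others, named after their values were seen, are Coq10b, which serves coenzyme Q function, Pde4d, a cyclic AMP phosphodiesterase, Bambi, a decoy receptor of TGF-beta signalling, and Cables1, a partner of cyclin-dependent kinases.

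Fos overlapped between the sets but only just, at 28.3 to 530.9 CPM in the 8 mice and 0 to 34.4 in the 11. Egr1 and Jun did not follow: Egr1 had 0.0598 to 17.6 CPM in the 8 and 0 to 20.2 in the 11, and Jun 18.7 to 34.7 against 11.6 to 67.1. The 8 mice came from 8 vectors and 2 of them from SM plates, and the 11 from 9 vectors and 1 from SM plates. Of 7 vectors given to 2 of these mice, 5 had 1 mouse in each set and 2 had both among the 11. Of 6 plates with at least 2 of the mice, 3 held mice of both sets. Mean depth covered 362838 to 570113 reads per cell in the 8 and 354160 to 569725 in the 11. These sets were read off the values and are not groups of the study, so they carry no test.

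The promoters of 5 members that were high in these mice are shown because several were high in the same mice, and because all 5 hold TGACG, the core that CREB and ATF proteins are known to bind. Capitals mark TGACG on either strand (CGTCA on the strand shown) in the 250 bases before the start of the gene, from RefSeq windows on GRCm38.p6, the assembly also called mm10. They lie at chr15:101266596-101266845 (plus strand), chr2:57124004-57124253 (minus), chr4:48045055-48045304 (plus), chr12:85473640-85473889 (plus) and chr3:145649986-145650235 (minus), and each is written 5′ to 3′ on the strand of its gene.
Nr4a1: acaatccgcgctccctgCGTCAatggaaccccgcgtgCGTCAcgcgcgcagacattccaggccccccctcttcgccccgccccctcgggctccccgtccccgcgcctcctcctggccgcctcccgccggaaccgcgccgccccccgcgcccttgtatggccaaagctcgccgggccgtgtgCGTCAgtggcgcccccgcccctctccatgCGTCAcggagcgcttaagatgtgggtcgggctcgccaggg
Nr4a2: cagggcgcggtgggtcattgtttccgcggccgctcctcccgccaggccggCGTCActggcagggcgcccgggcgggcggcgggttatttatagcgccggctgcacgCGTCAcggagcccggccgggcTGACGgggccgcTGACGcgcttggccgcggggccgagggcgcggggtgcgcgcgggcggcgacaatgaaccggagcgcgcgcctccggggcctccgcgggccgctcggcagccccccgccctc
Nr4a3: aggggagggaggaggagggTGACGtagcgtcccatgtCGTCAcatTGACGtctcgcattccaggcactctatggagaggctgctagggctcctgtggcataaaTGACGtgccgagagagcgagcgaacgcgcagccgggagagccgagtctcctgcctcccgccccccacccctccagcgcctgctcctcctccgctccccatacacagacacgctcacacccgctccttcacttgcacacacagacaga
Fos: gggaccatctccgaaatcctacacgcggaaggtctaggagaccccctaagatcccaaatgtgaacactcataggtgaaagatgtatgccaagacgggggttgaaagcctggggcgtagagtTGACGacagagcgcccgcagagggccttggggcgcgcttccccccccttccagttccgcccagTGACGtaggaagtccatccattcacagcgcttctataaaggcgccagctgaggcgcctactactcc
Ccn1: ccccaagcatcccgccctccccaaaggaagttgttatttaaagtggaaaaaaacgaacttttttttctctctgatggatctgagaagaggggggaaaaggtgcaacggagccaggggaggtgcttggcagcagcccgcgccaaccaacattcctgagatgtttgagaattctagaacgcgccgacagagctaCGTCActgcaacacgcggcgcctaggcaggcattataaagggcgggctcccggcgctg
Nr4a1, Nr4a2 and Nr4a3 hold 4 matches each, Fos 2 and Ccn1 1. RefSeq windows matched 29 of the 37 members, and Arc, Ccn2, Egr3, Ier2, Sik1, Egr1, Trib1 and Cebpd had none in the table used. TGACG was found in 18 of 29 members against 19.8% of all 27025 genes with a window. The full palindrome TGACGTCA, which contains TGACG, was found in 4 (Btg2, Dusp1, Maff and Ppp1r15a) against 1.77%. The AP-1 site TGANTCA was in 0 of 29 against 7.82%, and the serum response element core, known as the CArG box, in 2 (Egr2 and Zfp36) against 1.62%. The members' windows were richer in G and C, with a median of 64.8% against 52.4%, and all searches covered both strands. A match is a run of letters, and sequence outside these 250 bases was not searched, so a motif not found here may lie elsewhere. Of the members that separated the 8 mice, Fosl2 had no TGACG in its window, and Btg2 and Dusp1, which hold the full palindrome, did not separate them.

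Covariation with Fos over mice was tested for every gene by permutation of the 19 astrocyte mice. No gene passed at an adjusted p under 0.05 (0% of 3182), by Pearson's r or by Spearman's rho. At an unadjusted p under 0.05, 12 of 32 members had a positive r, against 5% of all genes: Nr4a1, Fosl2, Cebpb, Nr4a2, Nr4a3, Rgs2, Sik1, Ccn1, Junb, Klf4, Ppp1r15a and Cebpd, with adjusted p from 0.147 to 0.580. Without the 2 mice farthest from the median of Fos on the log2 scale, 2 members passed. They were Nr4a1 and Sik1 (both at an adjusted permutation p of 0.0314), the only genes to do so (0.0637% of 3142). The 2 mice left out, 1 with eHGT_374m and 1 with eHGT_380h, had no Fos read in their astrocytes. The mouse highest in Fos, at 530.9 CPM, stayed in. Because the mice fall into the sets described above, a pooled r is not given. Within the 11 mice the r with Fos was 0.26 for Nr4a1, 0.10 for Nr4a2, -0.46 for Ccn1, -0.28 for Sik1 and 0.51 for Junb. Within the 8 it was 0.48, 0.48, 0.73, 0.79 and 0.83 for the same genes. The sign was positive for all 5 genes in the 8 mice and negative for Ccn1 and Sik1 in the 11, and these values are descriptions of few mice that share plates and depth.

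Values that could move with Fos were set beside it. Over the 19 mice the r of Fos with depth was -0.02, with the summed astrocyte markers -0.40, with OPC markers 0.27, with endothelial markers -0.31, with microglial markers -0.23, with mural markers -0.17 and with neuronal markers -0.32. Endothelial markers totalled 1.45 to 26.6 CPM and microglial markers 66.96 to 363.6 CPM in these mice. Cell by cell within a mouse the members were only weakly tied to Fos, with mean r from -0.08 to 0.20 over 23 members that allowed the calculation in at least 3 mice. Of 10 heat-shock genes 1, and of 11 late-response genes 2, had an unadjusted p under 0.05 with Fos over the astrocyte mice, against 7.73% of all genes. In oligodendrocytes 0% of 2970 genes passed at an adjusted p under 0.05, and 1 of 27 members, Fosl2, had an unadjusted p under 0.05 with r above 0, against 1.99% of all genes.

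**Figure D4:**
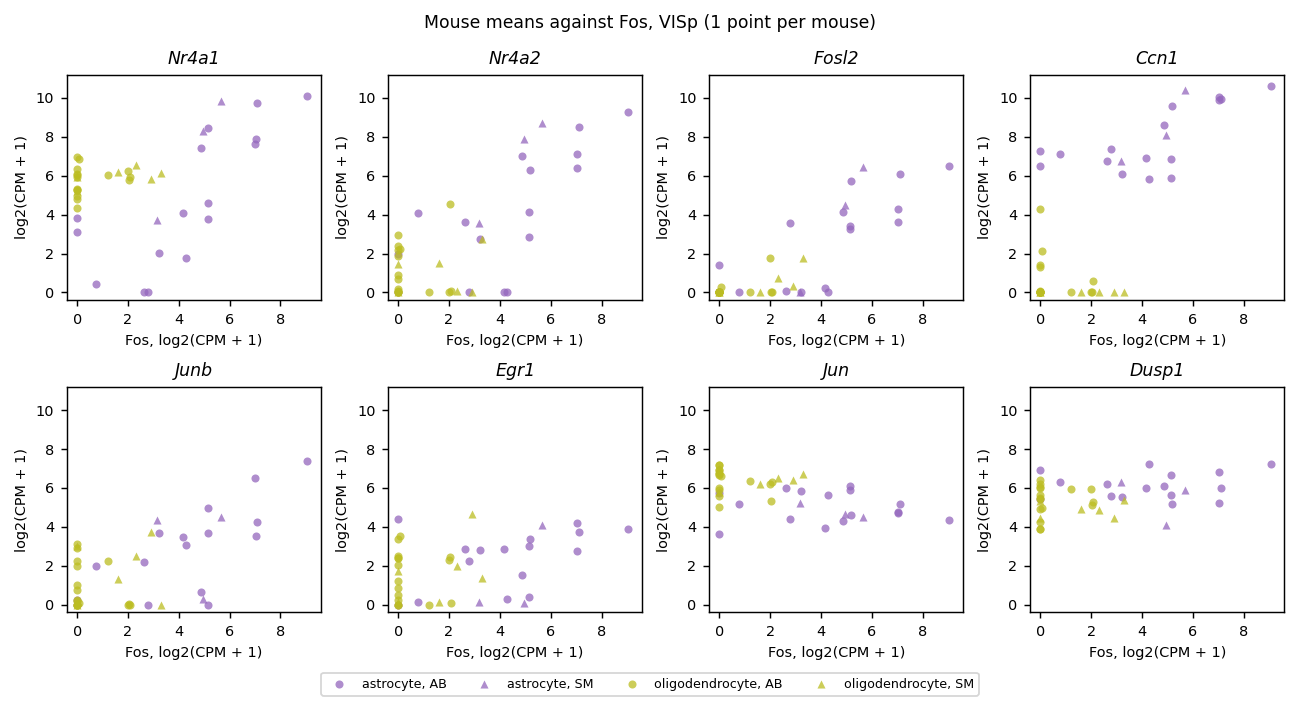
Mouse means of 8 members against Fos, both as log2(mean CPM + 1), in VISp astrocyte and oligodendrocyte mice on AB and SM plates, with 1 point per mouse. Nr4a1 and Nr4a2 show an upper and a lower set of astrocyte mice, and Jun and Dusp1 show no such sets. Within the 8 mice of the upper set the r of Dusp1 with Fos was 0.70, and within the 11 others 0.06. The oligodendrocyte mice sit at the left with Fos at most 8.87 CPM.

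Neurons and glia from the same brains were compared in 4 mice, with the mouse as a block. These were an eHGT_374m mouse (VISp, 13 neurons beside 26 astrocytes), both MBP_promoter mice (VISp, 21 and 27 neurons beside 29 and 18 oligodendrocytes) and an eHGT_381h mouse (MB/HB, 12 neurons beside 30 astrocytes). Of 29 members tested, 3 were higher in neurons and 1 lower, against 11.7% higher and 3.13% lower of 3095 genes. The members' median difference was 1.06 log2 units against 0.53 over all genes. The glial partner was an astrocyte in 2 mice and an oligodendrocyte in 2.

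Rgs2, which speeds the turning-off of Gq signals, showed the widest gap. Neurons had 105.3, 119.5, 128.9 and 152.9 CPM in the 4 mice and the glia of those mice had no read at all, so the neuronal level was at least 1716-fold higher than 3 reads over the glia (6.98 ± 0.68 on the log2(CPM + 1) scale, limma adjusted p = 0.00279). That gap holds for these 4 mice: in the eHGT_386m mouse, not part of the comparison, 43 astrocytes averaged 225.02 CPM of Rgs2 and its 2 neurons 126.8 CPM. Nr4a2 had 5.19 to 47.6 CPM in neurons and 0 to 0.596 in glia (3.45 ± 0.82, limma adjusted p = 0.0375), and its highest value was in the MB/HB mouse. This difference too holds for these 4 mice: astrocytes of the 8 VISp mice high in Nr4a1 had 76.6 to 623.2 CPM of Nr4a2. In the eHGT_386m mouse, 1 of those 8, astrocytes averaged 355.4 CPM and the 2 neurons 371.9 CPM. Ccn2, a matrix protein related to Ccn1, had 7.36 to 11.6 CPM in neurons and none in glia, at least 117.3-fold higher (3.25 ± 0.61, limma adjusted p = 0.0195). Zfp36 was the member called lower, with 0 to 0.460 CPM in neurons against 10.3 to 28.9 in glia (-3.96 ± 0.70, limma adjusted p = 0.0171). Leaving out any 1 of the 3 VISp mice kept the call of Rgs2 only. Genes were tested when at least 2 mouse values reached 1 CPM. Rgs2, Nr4a2 and Ccn2 reached it only in neurons and Zfp36 only in glia, so each was admitted by its high side. With no such filter 7.71% of all genes were called, against 14.8% with it.

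Fos, Junb and Egr1 did not pass in the 4 mice together. Fos had 51.3, 18.99 and 26.1 CPM in the neurons of the VISp mice, with a read in 53.8%, 57.1% and 55.6% of cells, and none in their glia. In the MB/HB mouse 1 of 12 neurons held a Fos read (4.33 CPM), beside 3.19 CPM in its astrocytes. The difference over the 4 mice was 3.78 ± 1.07 log2 units (limma adjusted p = 0.0616), and over the VISp mice alone 4.93 (limma adjusted p = 0.0292). Egr1 had 182.2, 35.8 and 25.6 CPM in the VISp neurons, in the same order of mice, and none in the 12 MB/HB neurons (3.76 ± 1.29, limma adjusted p = 0.0990). Junb was at 10.51 to 47.6 CPM in all 4 neuron samples (3.47 ± 1.04, limma adjusted p = 0.0710).

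Arc and Nr4a1 did not pass in either direction. Arc had 14.2 and 16.2 CPM in the neurons of the mice whose glia were astrocytes, which had none, the 16.2 CPM resting on 1 of 12 neurons, and 12.7 and 1.22 CPM in the neurons of the MBP_promoter mice, whose oligodendrocytes had 138.5 and 100.2 CPM. Arc was higher in neurons in the former 2 mice and lower in the latter 2, and the difference over all 4 was -0.21 ± 1.80 log2 units (limma adjusted p = 0.949). Nr4a1 was at 8.97 and 3.57 CPM in neurons beside 30.5 and 38.1 CPM in oligodendrocytes of the same mice, at 38.8 CPM in neurons beside 7.65 in astrocytes of the eHGT_374m mouse, and at 0 beside 0.116 in the MB/HB mouse (-0.68 ± 1.05 over the 4, limma adjusted p = 0.683). Ccn1 (-2.21 ± 1.19) and Btg2 (0.24 ± 1.23) did not pass, and Klf2 and Npas4 were too low to test. Of the 13 late-response genes tested 9 were higher in neurons, against 11.7% of all genes, led by Scg2 (8.07 ± 0.82), Syt4 (7.10 ± 0.66) and Vgf (6.999 ± 0.88), all of which belong to secretory granules or vesicles.

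**Figure D5:**
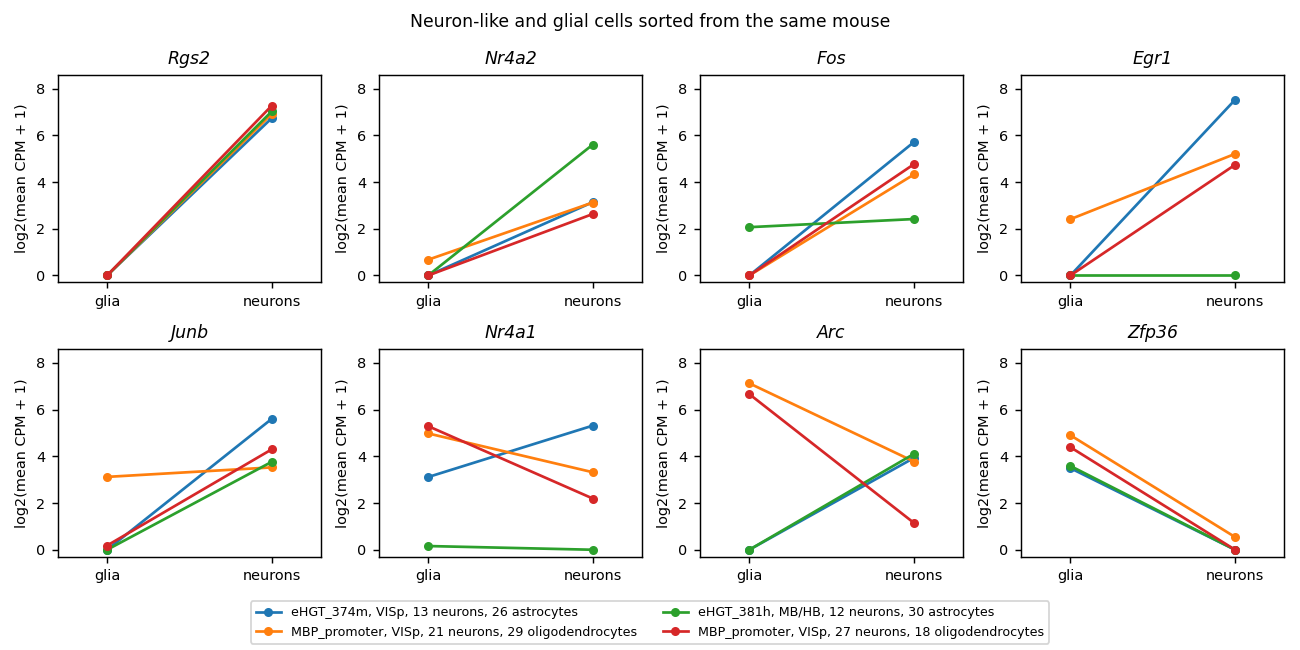
Log2(mean CPM + 1) of 8 members in glia and neurons of the same 4 mice, with a line per mouse labelled by vector, tissue and numbers of cells. Rgs2 is at 0 in glia and high in neurons of every mouse, Fos and Egr1 are higher in the neurons of the 3 VISp mice, and Arc is lower in neurons in the 2 mice whose glia are oligodendrocytes.

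Astrocytes of the 3 regions were compared in 1 model, with 2 CBX, 4 MB/HB and 19 VISp mice. In CBX, 2 of 35 members were higher and 2 lower than in VISp, against 6.04% higher and 5.98% lower of 3345 genes. Ier3, a stress-induced regulator of survival, had 69.98 and 96.8 CPM in the 2 CBX mice and 0 to 8.86 CPM in the VISp mice (5.33 ± 1.01 log2 units, limma adjusted p = 0.000289). Ccn1 was the reverse, with 2.85 and 11.23 CPM against 55.6 to 1555 (-5.15 ± 0.99, limma adjusted p = 0.000319). Neither gene overlapped between the regions, nor did Jund (higher) and Btg2 (lower); these 4 of 35 members compare with 13.1% of all genes. Ccn2 (1.28 ± 0.39, limma adjusted p = 0.0271) and Trib1, a pseudokinase (-3.004 ± 0.95, limma adjusted p = 0.0347), rested on values of at most 5.07 CPM in CBX, and without either CBX mouse 2 members were called. With the sort plate as a block (4 plates held mice of both regions) Ccn2 and Trib1 were lost (limma adjusted p = 0.163 and 0.0965). Jund was called (1.62 ± 0.42, limma adjusted p = 0.00896). That fit called 10.6% of all genes. Fos (7.90 and 10.6 CPM), Nr4a1 (27.3 and 2.71), Junb, Egr1, Btg2, Arc and Klf2 did not pass, and all 80 CBX cells carry 1 vector. Markers of other cells in the CBX astrocytes lay outside the VISp range: oligodendrocyte markers totalled 1862 and 2224 CPM (VISp at most 1311), fibroblast markers 50.5 and 57.98 CPM (at most 13.8), ependymal markers 87.8 and 86.2 CPM (at most 68.7) and OPC markers 39.3 and 38.7 CPM (at most 32.3), while mural markers were lower (16.7 and 22.4 CPM, VISp at least 31.4). Their part in the CBX differences was not tested.

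MB/HB astrocytes had the lowest score, 0.468 ± 0.123 (SD, n = 4 mice), and 5 detected members, a count with no share over all genes beside it. No member was higher than in VISp (against 5.59% of genes) and 6 of 35 were lower (against 6.85%), with a median difference of -1.14 log2 units over the members and -0.04 over all genes. Klf6, a zinc-finger factor of injury responses, had 6.75 to 21.1 CPM against 22.2 to 92.1 in VISp (-1.85 ± 0.31, limma adjusted p = 6.48e-05). Btg2 had 0 to 9.32 CPM against 14.7 to 105.96 (-3.57 ± 0.54, limma adjusted p = 1.31e-05). Klf6 and Btg2 thus lay under every VISp mouse, as did Ccn1 (24.2 to 45.2 CPM, -2.79 ± 0.73, limma adjusted p = 0.00819) and Nr4a3. These 4 of 35 members compare with 3.47% of all genes that did not overlap in either direction. With the sort plate as a block 7 members were called, against 15.1% of all genes (12.4% without the block). Klf6 was then at -3.04 ± 0.61 log2 units. Dusp6 (-2.16 ± 0.64, limma adjusted p = 0.0211) and Ier5 (-2.32 ± 0.75, limma adjusted p = 0.0341) were added, and Nr4a3 was lost (limma adjusted p = 0.150).

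Jun was lower as well (4.14 to 21.2 CPM, -2.02 ± 0.42, limma adjusted p = 0.000924), with overlap. With classes from clusters alone, which counts cells whose own highest markers are of another type, the Jun difference was 0.0441 log2 units. Nr4a3 had no read in any MB/HB mouse, so the VISp mean of 27.7 CPM was at least 580-fold higher than 3 reads over the 4 mice (-3.36 ± 1.04, limma adjusted p = 0.0287). That fold does not hold for every VISp mouse: the 11 mice low in Nr4a1 had 0.254 to 12.96 CPM of Nr4a3. Nr4a2 had 0 to 0.520 CPM (-4.22 ± 1.40, limma adjusted p = 0.0436). The calls of Nr4a2 and Nr4a3 were lost when any 1 of the 4 MB/HB mice was left out, and that of Nr4a2 also without several single VISp mice. Nr4a1, at 0.116 to 4.55 CPM, lay inside the low VISp set and did not pass (-3.80 ± 1.53, limma adjusted p = 0.110), and neither did Fos (-2.13 ± 1.12, limma adjusted p = 0.244), Junb, Egr1, Arc or Klf2. Dusp6 (54.04 to 150 CPM) and Gadd45g (39.1 to 115.5 CPM) were detected in every MB/HB mouse and did not pass without the plate block. Gadd45g did not pass with that block either (limma adjusted p = 0.390). Neuronal markers totalled 23.2 to 612.2 CPM in these mice (24.2 to 448.5 in VISp), oligodendrocyte markers 838.6 to 5601 CPM (171.1 to 1311) and fibroblast markers 29.9 to 72.6 CPM (0.197 to 13.8, with no overlap), and their part in the differences was not tested. Without the cells in which over 25% of another type's markers were found, 3 members were called, against 9.44% of all genes.

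The labels name 21 sort plates, whose names begin with AB (38 mice) or SM (9 mice). Over 3 SM and 16 AB astrocyte mice 0 members passed, against 0.0593% of 3371 genes, and 1 of 34 had an unadjusted p under 0.05 against 5.28% (Klf4, 1.64 ± 0.67 log2 units, limma p = 0.0180 before adjustment). Over 6 SM and 16 AB oligodendrocyte mice 0 members passed, against 0%, and 1 had an unadjusted p under 0.05 against 3.92% (Ier2). The interaction of class and plate prefix called 0 members and 0% of genes, with 2 members (Cebpd and Klf4) against 4.09% of genes at an unadjusted p under 0.05. Nr4a1 was 2.62 ± 1.38 log2 units higher on SM plates in astrocytes (limma adjusted p = 0.912). On AB plates alone the between-mouse share of Nr4a1 was 70.4% and that of Fos 43.6%.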

How the data were processed

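Per the labels, single SYFP2-positive cells were flow sorted and amplified with SMARTerv4. The submitters' processing notes name STAR and mm10. The counting step and its strand setting are not given in the sources used here. The deposited values are CPM, scaled to 1000000 per cell, with 32245 gene columns. All 9484843 positive values were whole multiples of 1 read (tolerance 0.001 reads), which gave the depth.

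Members and lists were chosen with earlier results of these data known. Only 4923 gene columns were used: 187 listed genes and 4736 random coding genes (27322 columns served only for sums and the read step). Leiden clustering (leidenalg 0.10.2, igraph 0.11.9, Python 3.11.15, scikit-learn 1.9.0, 11 clusters) gave classes. A cell kept its cluster's class where that class's markers were also its highest. Classes are rebuilt, not the authors', and no doublet caller was run.

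The CPM of a class was averaged over its cells in a mouse (at least 10 cells, or 5 in the neuron comparison), and log2(mean + 1) was tested with limma 3.58.1 (R 4.3.3, trend, two-sided, Benjamini-Hochberg over all genes tested, threshold 0.05), for genes with a mean of at least 1 CPM in at least 2 mouse values. log2 differences understate changes of low genes. A count test was not run on the recovered reads, because means of per-cell CPM weight cells equally. An added fit took values per mouse and plate (at least 5 cells), plate as a block and mouse as a random term. Covariation used 100000 permutations (scipy 1.17.1, numpy 2.4.6). Scripts were tested on simulated data. Labels do not state litters or batches beyond plates. Named throughout are Fos, Junb, Egr1, Nr4a1, Btg2, Ccn1, Klf2, Arc and Npas4, up to 6 members per direction with the largest called differences, and up to 3 called genes per other list. Promoters are RefSeq windows, and figures were drawn with matplotlib 3.10.9.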

Additional observations from a re-analysis of the deposited data

Results flagged for a closer look

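Sets of values (a gene or the score in a group) were examined for a single mouse standing apart. The groups were MB/HB astrocyte mice, neuron samples and VISp oligodendrocyte mice on SM plates. Of 26 sets 5 had one, all in groups of 4. Chance gives about 1 in 20 for values off the floor. Where all other mice are at 0, any value above 0 is flagged, so that rate does not apply to the MB/HB flags below. Values are log2(mean CPM + 1). In MB/HB astrocytes, 1 MGT_E160m mouse had Egr1 at 3.14 and Arc at 2.85 while the other 3 mice were at 0; each value rests on 2 of its 35 cells. That mouse also had the most oligodendrocyte (5601 CPM, the others 838.6 to 1597), neuronal (612.2 CPM) and endothelial (93.9 CPM) markers of the 4, whose part was not tested. An eHGT_381h mouse had Klf2 at 2.73, from 2 of 30 astrocytes, with the other 3 mice at 0. Among the neuron samples, the MBP_promoter mouse with 27 neurons had Arc at 1.15, below the 3.78 to 4.10 of the others (4.10 rests on 1 of 12 neurons), and Npas4 at 1.90, above their 0 to 0.25, with a read of each in 3 of its neurons.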

How the results depend on the processing

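The count of 23 members called between oligodendrocytes and astrocytes stayed between 20 and 24 over the 12 other settings and between 22 and 24 with any 1 of 41 mice left out, and no called member changed direction there. The neuron comparison was the least settled. Its 4 members became 7 with no replicate block, 8 with depth as a covariate and 14 with the mean of per-cell logs, and 1 to 6 with 1 mouse left out (1 without any of the 3 VISp mice). The mouse is the pairing in that comparison; elsewhere the groups share no mice. They share sort plates, and a fit with the plate as a block was chosen after seeing the data. It called 20 members for oligodendrocytes against astrocytes, 3 in CBX and 7 in MB/HB. Over all genes it called 42.3%, 10.6% and 15.1%, against 61.2%, 12.02% and 12.4% in the main fit. The plate fit assumes 1 within-mouse correlation for all genes (0.0342 and 0.0776), although members such as Nr4a1 vary far more between mice. CBX against VISp gave 2 to 5 members with 1 mouse left out (2 without either CBX mouse). MB/HB against VISp gave 4 to 7 with 1 mouse left out and 3 without cells holding over 25% of another type's markers. Over all genes these 2 settings called 9.33% to 13.4% and 9.44%. Jun in MB/HB turned to 0.0441 log2 units with classes from clusters alone, and the cause was not tested. Members called for covariation with Fos in astrocytes went from 0 to 2 without the 2 mice farthest from the median of Fos, to 4 with the mean of per-cell logs and to 8 with Nr4a1 in place of Fos (0.911% of all genes), which compares mice across the gap in Nr4a1. Of all genes tested, the neuron comparison called 14.8%, against 7.71% with no filter on low values, 24.1% with depth as a covariate, 52.6% with the mean of per-cell logs and 4.13% to 12.95% with 1 mouse left out. CBX against VISp called 12.02%, against 28.3% with the mean of per-cell logs, 6.17% without cells holding over 25% of another type's markers and 5.46% to 12.8% with 1 mouse left out. All plate comparisons stayed at 0 members, and over all genes tested they gave 0 to 10 under every setting run. The AB-only setting could not be fitted to the plate comparisons and changed nothing in the neuron comparison, whose mice are all on AB plates. Class by cluster alone, the Nr4a1 setting, no replicate block and the alternatives to the between-mouse share were chosen after seeing the data. Low counts limit Klf2, Socs3, Npas4 and Ccn2, and means over 12 to 27 neurons limit the neuron values.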

Other observations

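Glial mice also held single cells of other classes, which are given as values. The 1 oligodendrocyte-like cell of the 3xCore2(390m) mouse highest in Fos had 361.5 CPM of Fos, above the highest oligodendrocyte mouse mean of 8.87 CPM. Of the other mice high in Nr4a1, an eHGT_390m and a GFAP_promoter mouse had 1 such cell each, with 96.9 and 68.5 CPM of Fos. The 2 such cells of the eHGT_387m mouse, also high in Nr4a1, had no Fos read. The 2 neuron-like cells of the eHGT_386m mouse, another high one, averaged 693.9 CPM of Fos. In the high eHGT_373m, eHGT_390m and eHGT_385m mice, 1 or 2 neuron-like cells averaged 237.1, 110.7 and 0 CPM. Among mice low in Nr4a1 with 1 or 2 such cells, the values were 155.1 (eHGT_390m), 153.1 (eHGT_376h), 32.9 (3xCore2(390m)) and 0 CPM (eHGT_374m). The 6 oligodendrocyte-like cells of the MB/HB eHGT_381h mouse with 39 astrocytes averaged 230.95 CPM of Arc, beside no Arc read in those astrocytes. With 1 to 6 cells per mouse no test was made.

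The 41 cells without a class included 25 of a mixed cluster, with member scores from 0.67 to 4.36, and 3 cells whose highest markers were endothelial. In those 3 cells Jun averaged 2297 CPM and Klf2, a flow-responsive factor of endothelium, averaged 907 CPM over the 3, although Klf2 had a read in at most 0.389% of VISp glia.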
